A study of Mus musculus with 12 samples.

Results

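Neuronal microexons are very short exons that neurons splice into mature messenger RNA and that most other cells skip. The genes that carry them encode adhesion receptors, scaffolds, vesicle and cytoskeletal proteins, kinases and transcription factors. Listed here are 48 such host genes, known as usual targets of Srrm4, of the 22667 gene identifiers in the deposited tables. The rule for the list rests on the exons these genes are known to carry and uses no level or fold change. The members were, however, chosen with earlier results of these data known. All 48 were found by symbol, and all 48 passed the filter on low counts. The question was whether the total output of the hosts moved when Srrm4 was lost, because the tables hold a value per gene and none per exon.

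Srrm4 (or nSR100) is a splicing factor of neurons that binds sequences upstream of microexons and promotes their inclusion. Most microexons keep the reading frame, so their inclusion adds or removes a few amino acids, often at the surface of a protein domain, without ending translation. A change in inclusion of that kind alters the protein made and need not alter the amount of messenger RNA.

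The study sequenced messenger RNA from hippocampus and cortex of mouse embryos at E18.5. There were 4 groups of 2 libraries each, named hippocampus KO, hippocampus control, cortex KO and cortex control. KO embryos carried an nSR100 allele that came from EUCOMM stem cells with a conditional (lox) allele, aggregated with ICR morulae, and exons 7 and 8 had been excised by crossing to B6.C-Tg(CMV-cre)1Cgn/J mice. The cytomegalovirus promoter of that Cre line is active broadly, so the deletion is not limited to neurons. Mice were bred on a C57Bl/6N background. Controls were labelled wild type at the same age, and no group received an agent. The labels do not say whether the libraries of a group came from separate embryos, or whether hippocampus and cortex libraries share embryos. The p-values thus measure the spread between libraries, part of which may be technical. Comparisons over both tissues may rest on fewer embryos than libraries.

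Depth ranged from 58210499 to 140052443 counts per library, of which the 48 hosts took 1.24% to 1.44%. The lowest count of any host in any library was 1799, for Ap1s2. Srrm4 itself had 5.68 and 6.16 RPKM in hippocampus KO against 26.03 and 27.86 RPKM in hippocampus controls, and 8.12 and 6.97 RPKM in cortex KO against 25.22 and 24.22 RPKM in cortex controls, so each KO library lay below each control (RPKM is the authors' read count scaled by gene length and by the library's total). The tissue labels were checked against markers. The 4 hippocampal markers (Prox1, Zbtb20, Lef1, Emx2) summed to 139 to 158 RPKM in hippocampus and 21 to 24.4 RPKM in cortex. The 8 striatal markers summed to 42.7 to 53.8 RPKM in hippocampus and 228 to 241 RPKM in cortex, so the cortex libraries held RNA of striatal type. Hippocampus KO replicate 1 stood apart. Mitochondrial genes took 4.4% of its counts against 3.14% to 3.44% in the other 7 libraries. The 4 Y-linked genes summed to 0.14 RPKM in hippocampus KO replicate 2 against 47.0 in hippocampus control replicate 2, and to 0.11 in cortex KO replicate 2 against 45.5 in cortex control replicate 2. In the 4 replicate 1 libraries the sums lay between 7.34 and 14.9 RPKM, so sex and genotype differ together in replicate 2. The 2 libraries of every group thus differed in Y-linked sum, so they did not hold the same embryo material.

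The label of the list was first set against the annotation. In GENCODE M21, internal coding exons of 3 to 27 bases were present in 43 of the 48 hosts (89.6%), in 18 of 39 relatives of the hosts from the same gene families (46.2%) and in 1076 of 16493 protein-coding genes with at least 15 counts (6.52%). At least 1 coding transcript skipped such an exon in 41 hosts (85.4%), against 13 relatives (33.3%) and 480 of all genes (2.91%). The hosts held 89 of these exons, 79 of them a multiple of 3 bases long (88.8%, against 66.8% of 1529 over all genes), with a median length of 16 bases. Exons that differ only in their annotated start or end were counted separately. By that count, more than 1 such exon was annotated in 25 hosts. Hosts also have many exons, with a median of 30.5 in the transcript with most exons, against 26 in the relatives and 9 in all genes. No exon of that length was annotated in Ppfia2, Agap2, Agap3, Itsn2 and Stxbp5. Since the list was drawn up from knowledge of such exons, these shares are a description of it.

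The exons of the hosts that the results turn on, and of families with several members, are printed in the sense of the transcript from GENCODE M21 (build GRCm38; the deposited tables were made on mm9). The short exon is in capitals, with the 12 bases of the neighbouring exons on either side in lower case. In the MEF2 family, transcription factors of neuronal and muscle differentiation, the short exon is the one known as exon beta, in the part of the gene that encodes the activation domain. Its 24 bases in Mef2a and Mef2c were identical at 17 positions, and the exon of Mef2d was 21 bases long.
Mef2a: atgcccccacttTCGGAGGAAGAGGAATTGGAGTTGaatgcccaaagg
Mef2c: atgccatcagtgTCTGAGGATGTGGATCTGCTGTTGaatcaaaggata
Mef2d: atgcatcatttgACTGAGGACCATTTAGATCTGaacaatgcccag

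The same 6 bases formed the short exon of Apbb1 and Apbb2, adaptors that bind the cytoplasmic tail of the amyloid precursor protein. In Ptprd and Ptprs, receptor phosphatases that organise synapses by binding partners across the cleft, a 12-base exon was identical at 11 positions. L1cam and Nrcam, adhesion molecules of growing axons, share a 12-base exon in the cytoplasmic tail that was identical at 8 positions; in L1cam it is known to complete a signal for endocytosis. The 9-base exons of Asap1 and Asap2, which switch off Arf GTPases, differed at 1 of 9 positions.
Apbb1: ggacagtggaagAGAGAGggactttgccta
Apbb2: agacaacggccgAGAGAGggactttgctta
Ptprd: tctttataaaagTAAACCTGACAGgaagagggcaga
Ptprs: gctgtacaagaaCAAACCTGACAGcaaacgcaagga
L1cam: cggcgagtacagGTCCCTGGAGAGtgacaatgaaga
Nrcam: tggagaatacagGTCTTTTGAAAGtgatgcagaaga
Asap1: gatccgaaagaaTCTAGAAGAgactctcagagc
Asap2: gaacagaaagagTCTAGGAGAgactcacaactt

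A further 6 exons are shown because Picalm, Nfasc, Snap91, Cadps and Ap1s2 are described with their values below, and because the 18-base exon of Src, the N1 exon, is the textbook neuronal microexon. Picalm and Snap91 (also called AP180) recruit clathrin to membranes, Ap1s2 is a small subunit of the clathrin adaptor AP-1, Cadps primes dense-core vesicles for release, Nfasc is the adhesion molecule neurofascin of the axon initial segment and nodes, and Src is a tyrosine kinase.
Picalm: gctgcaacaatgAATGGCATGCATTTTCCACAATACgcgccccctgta
Snap91: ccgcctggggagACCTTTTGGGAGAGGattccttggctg
Ap1s2: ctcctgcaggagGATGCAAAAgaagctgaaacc
Cadps: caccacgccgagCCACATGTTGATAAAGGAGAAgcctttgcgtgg
Nfasc: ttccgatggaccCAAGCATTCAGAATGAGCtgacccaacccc
Src: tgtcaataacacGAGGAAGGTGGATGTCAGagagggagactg

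The hosts were abundant. Their mean level over the 8 libraries had a median of 34.3 RPKM and ran from 6.72 RPKM to 226 RPKM, against a median of 8.36 RPKM over all 16092 tested genes with an RPKM value. Of the 48 hosts, 46 exceeded 10 RPKM (95.8%, against 45.9% of all genes). The hosts were also long, with a median length implied by counts and RPKM of 5.7 kb against 2.72 kb.

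The highest level belonged to Sptan1, the alpha spectrin of the membrane skeleton, with 226.56 and 221.03 RPKM in hippocampus KO, 228.40 and 216.29 RPKM in hippocampus controls, 233.16 and 225.06 RPKM in cortex KO and 233.43 and 225.55 RPKM in cortex controls. Its groups overlapped in every pairing. L1cam had 86.69 and 115.96 RPKM in hippocampus KO, 99.84 and 113.07 RPKM in hippocampus controls, 130.68 and 135.37 RPKM in cortex KO and 131.37 and 125.61 RPKM in cortex controls. Every hippocampus library lay below every cortex library for L1cam, and KO and control overlapped in both tissues. Ptprs, the remaining host of the 3 highest, is described with the KO comparison.

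At the low end stood Rapgef6, an exchange factor for the GTPase Rap, with 6.93 and 5.27 RPKM in hippocampus KO, 5.04 and 5.50 RPKM in hippocampus controls, 7.81 and 8.23 RPKM in cortex KO and 7.02 and 7.97 RPKM in cortex controls. Itsn2, an endocytic scaffold, had 8.14 and 7.73 RPKM in hippocampus KO, 7.37 and 8.05 RPKM in hippocampus controls, 6.96 and 7.58 RPKM in cortex KO and 7.41 and 8.02 RPKM in cortex controls. For Itsn2, KO overlapped control in both tissues and hippocampus overlapped cortex, while for Rapgef6 every hippocampus library lay below every cortex library. Stxbp5, the SNARE regulator tomosyn, had 8.92 and 8.83 RPKM in hippocampus KO, 9.68 and 9.65 RPKM in hippocampus controls, 11.67 and 10.22 RPKM in cortex KO and 11.92 and 10.55 RPKM in cortex controls. Its hippocampus KO libraries lay below the hippocampus controls and its cortex groups overlapped.

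Families were uneven in level. Ptprs averaged 157 RPKM over the 8 libraries against 39.1 RPKM for Ptprd and 32.8 RPKM for Ptprf, all 3 receptor phosphatases of the LAR type. Ptprd and Ptprf overlapped across libraries, and Ptprs lay above both in each library. In the APBB pair, Apbb1 averaged 99.3 RPKM and Apbb2 11.1 RPKM. The intersectins, scaffolds of endocytosis, stood at 28.8 RPKM for Itsn1 and 7.66 RPKM for Itsn2.

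Among the L1 family, L1cam averaged 117 RPKM, Nfasc 39.5 RPKM and Nrcam 35.8 RPKM. Nfasc lay above Nrcam in hippocampus and below it in cortex. The ankyrins, which anchor membrane proteins to spectrin, stood at 60.9 RPKM for Ank2 and 37.7 RPKM for Ank3. Clasp2 averaged 78.7 RPKM and Clasp1 39.7 RPKM, both of which stabilise microtubule ends, and the translation factors Eif4g1 and Eif4g3 averaged 91.8 RPKM and 54.1 RPKM. The order within the ankyrin, CLASP and EIF4G pairs was the same in all 4 group means.

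The MEF2 factors changed places between tissues. Mef2c averaged 16.0 RPKM in hippocampus, beside Mef2d at 17.0 RPKM and Mef2a at 19.4 RPKM. Its overlap with them there came from hippocampus KO replicate 1 alone, at 24.04 RPKM. In the remaining hippocampus libraries Mef2c had 12.79 to 13.94 RPKM, below both. In cortex it averaged 104.5 RPKM, far above Mef2d (26.1 RPKM) and Mef2a (23.6 RPKM). Among the AGAP proteins, Agap2 and Agap3 overlapped in hippocampus, at 52.3 RPKM and 54.1 RPKM, while in cortex Agap2 lay above, at 90.2 RPKM against 65.0 RPKM. Agap1 was the lowest of them in each library. Asap2 lay above Asap1 in all 4 group means.

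**Figure D1:**
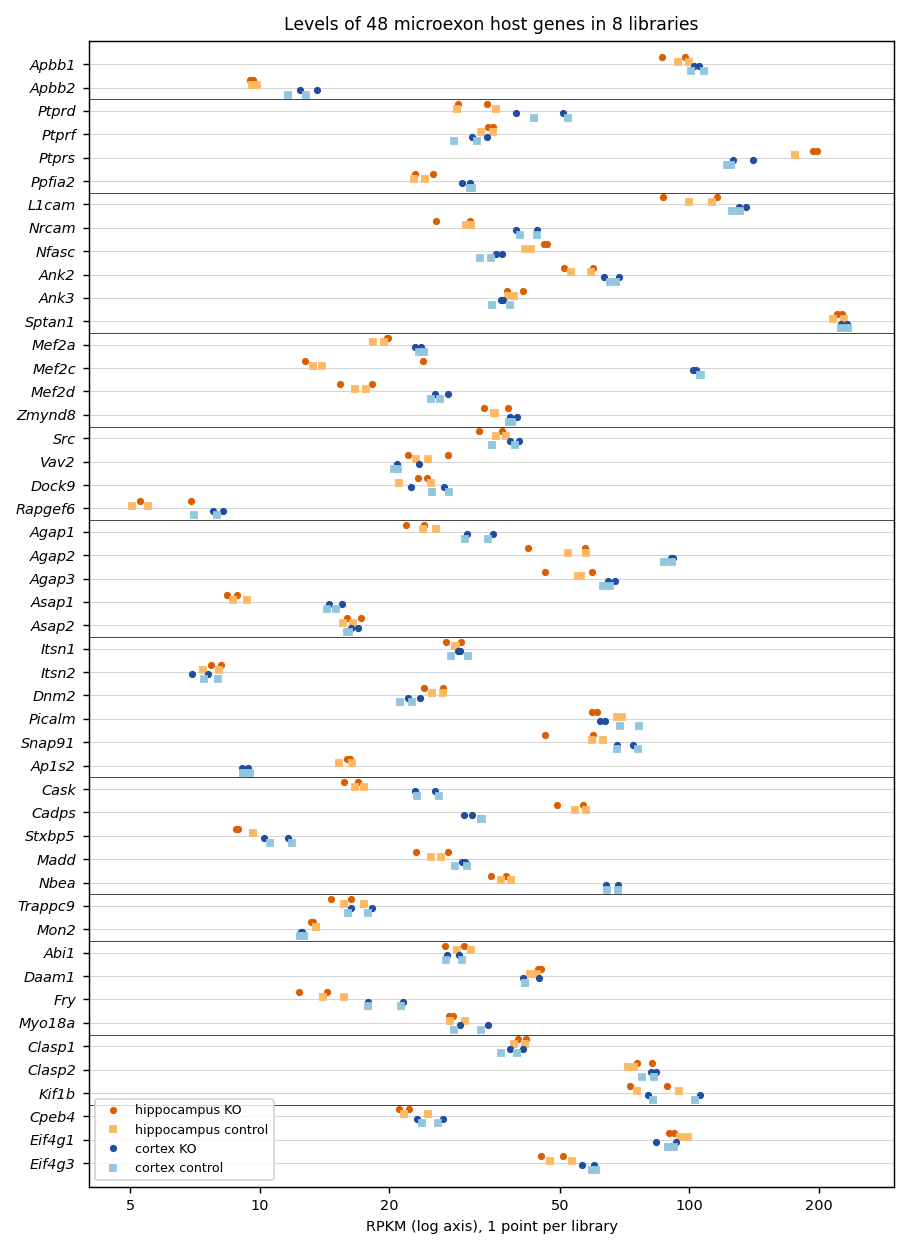
Level of each of the 48 hosts in RPKM on a log axis, with 1 point per library; circles are KO and squares are control libraries, orange for hippocampus and blue for cortex, and lines separate the role groups. KO and control points lie close together for nearly all hosts, while Mef2c, with 12.79 to 24.04 RPKM in hippocampus and 101.71 to 106.38 RPKM in cortex, shows the widest gap between tissues.

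The first comparison asked whether loss of Srrm4 moved the total expression of its targets' genes. It did not do so for any host at the threshold used, an adjusted p under 0.05 (edgeR quasi-likelihood test, Benjamini-Hochberg adjustment over 16111 genes). The number of hosts called was 0 of 48 in hippocampus, where 0.0248% of all genes passed, 0 of 48 in cortex, where 0.0186% passed, and 0 of 48 over both tissues, where 0.0621% passed. With so few genes passing anywhere, 0 of 48 lay near the background. At an unadjusted p under 0.05 there was 1 host, Picalm, in each of the 3 comparisons (2.08% of hosts), against 3.81% of all genes in hippocampus, 1.14% in cortex and 4.43% over both tissues. DESeq2, run as an alternative, called 0 hosts in hippocampus, 0 in cortex and 1 over both tissues, again Picalm. In tissue RNA of this kind, fewer cells of a type and less RNA per cell cannot be told apart.

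The size of the change was bounded for most hosts. Over both tissues the log2 fold changes, KO over control, ran from -0.22 to 0.18 with standard errors (SE) of 0.04 to 0.17. The 95% interval lay within 0.25 of 0 for 40 hosts and within 0.5 for 47, the exception being Mef2c with an upper bound of 0.56. In hippocampus the interval lay within 0.5 of 0 for 44 hosts, and in cortex for 47. No host had a log2 fold change beyond 0.25 in cortex or over both tissues, and in hippocampus Mef2c alone did. Of all genes, 15.3% exceeded that size in hippocampus, 10.6% in cortex and 8.32% over both tissues. Over all tested genes with an RPKM value the median level was lower than that of the hosts (8.36 RPKM against 34.3 RPKM). No set of like level was compared, so these shares do not show that hosts were unusually stable.

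The median log2 fold change of the hosts was -0.06 in hippocampus, with 35 of 48 below 0, and 0.01 in cortex, with 18 of 48 below 0. Over both tissues it was -0.02, with 33 of 48 below 0. Over all genes 51.4% lay below 0 in hippocampus, 50.3% in cortex and 51.8% over both tissues. The hippocampal lean was present between the replicate 1 libraries and not between the replicate 2 libraries. KO minus control over the hosts had a median of -0.13 log2 CPM (counts scaled to a common library total) in replicate 1, with 38 hosts below 0, and of 0.02 in replicate 2, with 19 below 0. Without hippocampus KO replicate 1 the hosts' median in hippocampus was -0.01. In cortex the 2 values were 0.01 and 0.02.

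The summed levels of several marker lists did not overlap between hippocampus KO and hippocampus controls, although none of their genes passed. Of single genes, 27.2% likewise did not overlap in this comparison. The 7 erythroid markers summed to 494 and 297 RPKM in hippocampus KO against 199 and 281 RPKM in hippocampus controls. Of these 6 were above 0 and 1 below (median 0.71). The 4 intermediate progenitor markers lay higher in hippocampus KO (median 0.16) and the 5 oligodendrocyte lineage markers lower (median -0.23). Further lists are given with their values. The 9 interneuron markers summed to 148 and 165 RPKM in hippocampus KO against 184 and 204 RPKM in hippocampus controls, and all 9 had a log2 fold change below 0 (median -0.43). The 7 neuron markers summed to 2330 and 2380 RPKM in hippocampus KO against 2580 and 2500 RPKM in hippocampus controls, all 7 below 0 (median -0.13). The 6 glutamatergic neuron markers lay higher in hippocampus KO, at 378 and 391 RPKM against 357 and 369 RPKM in hippocampus controls. Of these, 4 were above 0 and 2 below (median 0.05). The 8 microglia markers, at 69.7 and 62.1 RPKM in hippocampus KO against 58.4 and 53.8 RPKM in hippocampus controls, were all above 0 (median 0.21). In cortex the erythroid markers summed to 357 and 301 RPKM in KO against 215 and 283 RPKM in controls (median 0.45). The cortex medians were 0.08, -0.03, -0.01 and 0.19 for the interneuron, neuron, glutamatergic and microglia lists. Their part in the host values was not tested.

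The test of the difference between tissues called 0 hosts at the adjusted threshold and 0 at an unadjusted p under 0.05, where 158 of all genes (0.981%) lay under that p and 0% were called.

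Role groups did not stand out, and no member of any passed. Over both tissues the median log2 fold change was -0.02 in the APBB adaptors (2 genes), 0.02 in the LAR-type phosphatases with liprin (4 genes), -0.02 in the L1 family with ankyrins and spectrin (6 genes) and 0.01 in the MEF2 factors with the chromatin reader Zmynd8 (4 genes). It was 0.02 in the kinase and exchange factors (4 genes), -0.03 in the Arf GTPase-activating proteins (5 genes), -0.03 in the endocytic group (6 genes) and -0.06 in the synaptic group (5 genes). The trafficking pair stood at -0.04, the actin regulators (4 genes) at -0.03 and the translation factors (3 genes) at -0.07. All 5 synaptic hosts (Cask, Cadps, Stxbp5, Madd, Nbea) and all 3 translation hosts (Cpeb4, Eif4g1, Eif4g3) had values below 0, between -0.11 and -0.02, none of which passed. The 7 neuron markers also lay below 0 over both tissues, with a median of -0.08 and 0 called, and whether that moves with these hosts was not tested. Of the 6 glutamatergic neuron markers, 4 lay above 0 over both tissues and 2 below (median 0.03).

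**Figure D2:**
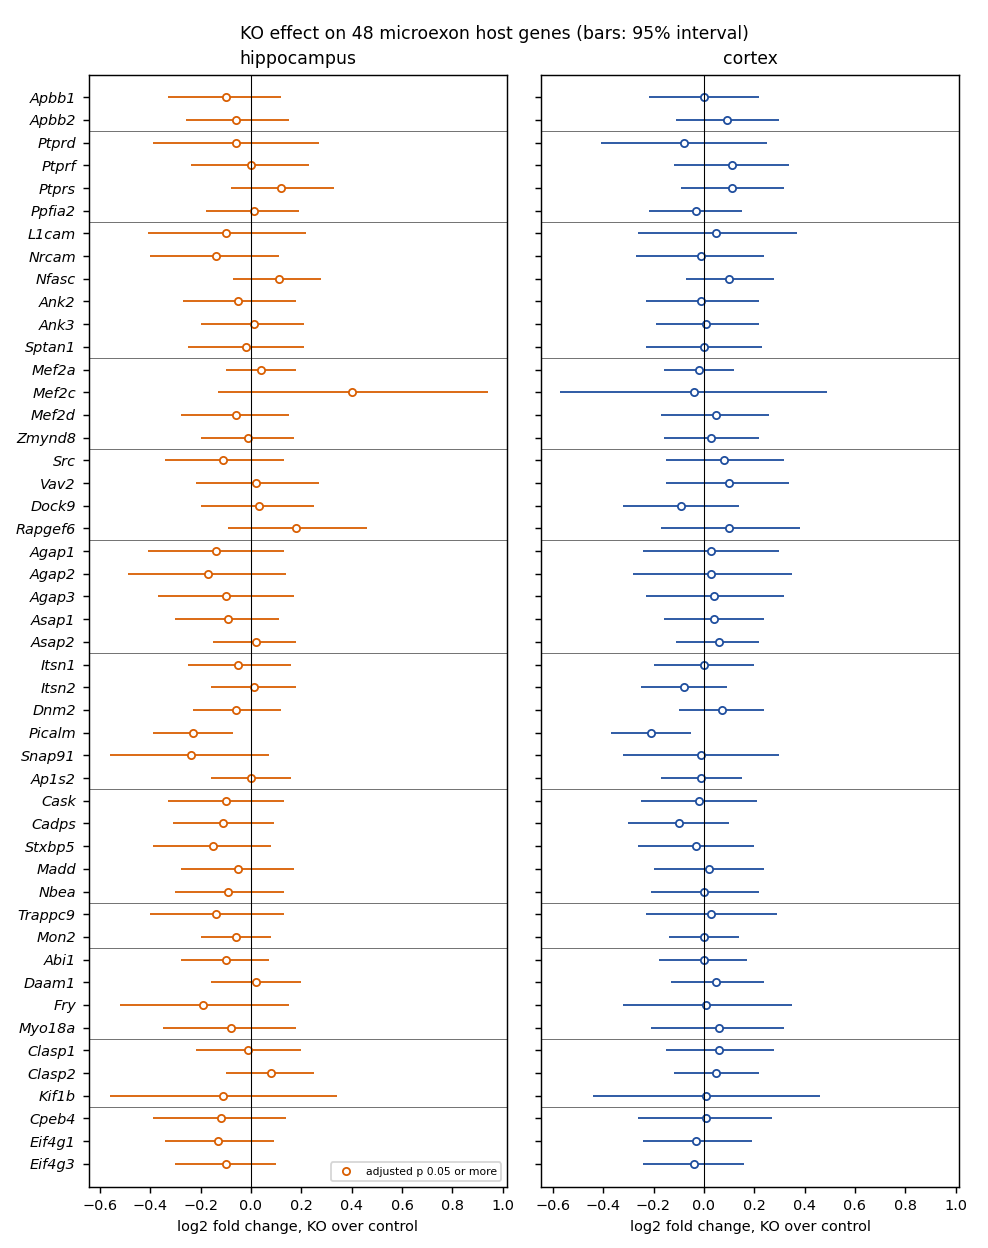
Log2 fold change of each host, KO over control, in hippocampus (left) and cortex (right); bars are 95% intervals from the edgeR fit and open points did not pass an adjusted p of 0.05. All points are open, they lie between -0.24 and 0.40, and Picalm is the host whose interval stays below 0 in both tissues.

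Picalm was the host with the smallest p in the hippocampus, the cortex and the combined comparison. It had 59.21 and 61.05 RPKM in hippocampus KO against 68.05 and 69.90 RPKM in hippocampus controls, and 61.92 and 63.59 RPKM in cortex KO against 69.09 and 76.36 RPKM in cortex controls. All 4 KO libraries lay below all 4 control libraries, which need not come from 4 separate embryos per genotype. On the log2 scale KO over control came to -0.23 in hippocampus (SE 0.07, unadjusted p = 0.012, adjusted p = 0.99, edgeR) and to -0.21 in cortex (SE 0.07, unadjusted p = 0.018, adjusted p = 1, edgeR). Over both tissues it was -0.22 (SE 0.04, 95% interval -0.32 to -0.12, adjusted p = 0.46, edgeR), and DESeq2 gave the same size with an adjusted p of 0.0021. Leaving out any 1 library kept the value between -0.24 and -0.20, and over the 16 alternatives the adjusted p ran from 0.0021 to 1.

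Ptprs had 193.60 and 198.18 RPKM in hippocampus KO against 175.68 and 176.45 RPKM in hippocampus controls, and 126.12 and 140.31 RPKM in cortex KO against 124.72 and 122.07 RPKM in cortex controls. KO libraries lay above controls within each tissue. Its log2 fold change over both tissues was 0.12 (SE 0.06, adjusted p = 1, edgeR), with 0.12 in hippocampus and 0.11 in cortex. Nfasc, with 45.91 and 46.72 RPKM in hippocampus KO against 41.51 and 42.76 RPKM in hippocampus controls, and 35.50 and 36.57 RPKM in cortex KO against 34.56 and 32.62 RPKM in cortex controls, showed the same order. Its log2 fold change over both tissues was 0.11 (SE 0.05, adjusted p = 1, edgeR).

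Picalm, Ptprs and Nfasc were the 3 hosts whose KO libraries lay beyond the controls in the same direction in both tissues (6.25% of hosts, against 5.69% of all genes), a share near the background. Within hippocampus alone the KO and control libraries did not overlap for 9 hosts (18.8%, against 27.2% of all genes), and within cortex alone for 6 hosts (12.5%, against 20.6%).

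The next 3 hosts by p over both tissues were Cadps, Rapgef6 and Stxbp5. Cadps had 49.09 and 56.46 RPKM in hippocampus KO against 54.21 and 57.57 RPKM in hippocampus controls, and 31.14 and 29.90 RPKM in cortex KO against 32.81 and 32.88 RPKM in cortex controls. The groups overlapped in hippocampus and not in cortex. Over both tissues the log2 fold change of Cadps was -0.11 (SE 0.06), that of Rapgef6, whose groups overlapped in both tissues, was 0.14 (SE 0.08), and that of Stxbp5 was -0.09 (SE 0.07), all with an adjusted p of 1 (edgeR).

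In hippocampus, the hosts with the smallest p after Picalm were Snap91 and Mef2c. Snap91 had 46.07 and 59.62 RPKM in hippocampus KO against 63.09 and 59.43 RPKM in hippocampus controls, and 74.02 and 67.97 RPKM in cortex KO against 75.77 and 67.82 RPKM in cortex controls. Replicate 1 of hippocampus KO was the low library, and replicate 2 lay between the controls. The log2 fold change in hippocampus was -0.24 (SE 0.14, adjusted p = 0.99, edgeR) and lay between -0.45 and -0.06 when libraries were left out in turn.

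Mef2c had 24.04 and 12.79 RPKM in hippocampus KO against 13.94 and 13.32 RPKM in hippocampus controls, and 101.71 and 103.79 RPKM in cortex KO against 106.07 and 106.38 RPKM in cortex controls. Here too replicate 1 of hippocampus KO stood apart, above the other 3 hippocampus libraries, and it was the library with the high mitochondrial share. The log2 fold change in hippocampus was 0.40 (SE 0.23, adjusted p = 0.99, edgeR), and without that library it was -0.11 (SE 0.08, adjusted p = 0.96). The part of that library's makeup in the Mef2c value was not tested.

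**Figure D3:**
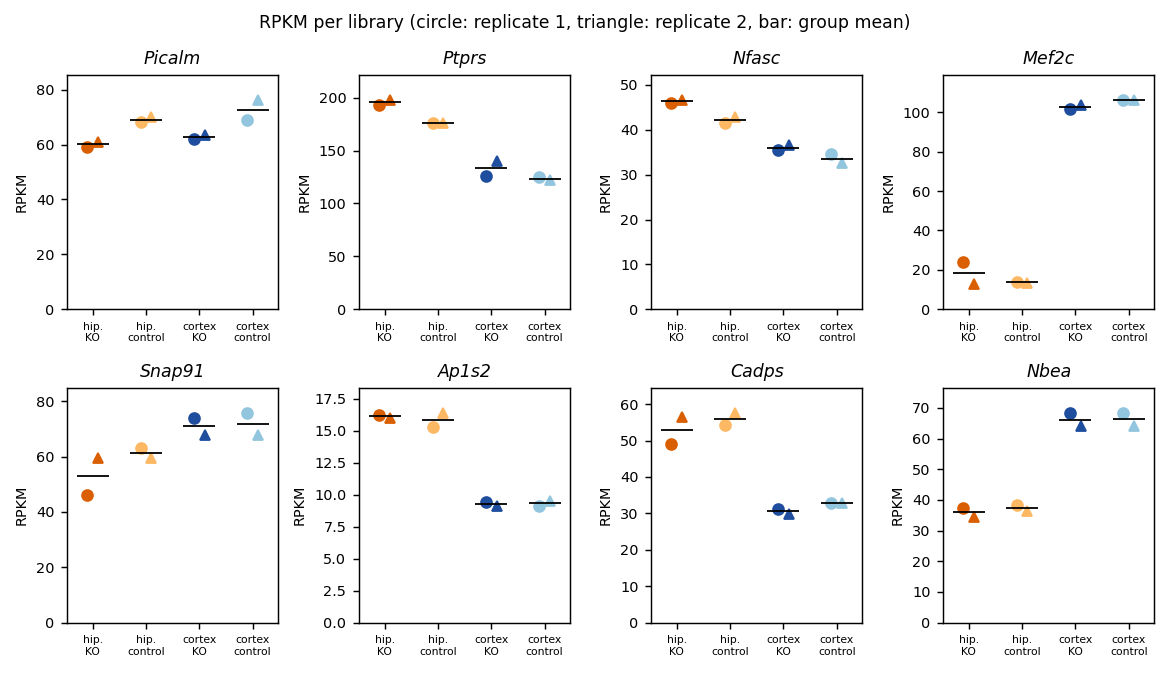
RPKM in each library for 8 hosts, with the axis starting at 0; circles are replicate 1, triangles replicate 2 and bars the mean of the 2 libraries of a group. Picalm lies lower, and Ptprs and Nfasc higher, in KO than in control libraries of both tissues, while in Mef2c and Snap91 hippocampus KO replicate 1 (24.04 and 46.07 RPKM) stands apart from replicate 2 (12.79 and 59.62 RPKM).

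The remaining hosts gave values close to 0. In the MEF2 family Mef2a had a log2 fold change over both tissues of 0.01 (SE 0.04) and Mef2d of -0.01 (SE 0.06). Src averaged 34.5 RPKM in hippocampus KO against 36.4 RPKM in hippocampus controls and 39.2 RPKM in cortex KO against 37.0 RPKM in cortex controls, with a log2 fold change of -0.01 (SE 0.07). The APBB pair with identical short exons gave -0.05 (SE 0.07) for Apbb1 and 0.02 (SE 0.06) for Apbb2. For L1cam the value was -0.02 (SE 0.09), for Nrcam -0.08 (SE 0.08), for Ptprd -0.07 (SE 0.09) and for Ptprf 0.05 (SE 0.07).

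Among the Arf GTPase-activating proteins the values lay between -0.07 for Agap2 and 0.04 for Asap2, and among the microtubule regulators at 0.03 for Clasp1, 0.06 for Clasp2 and -0.05 for Kif1b, a kinesin motor. Because sex and genotype differ together in replicate 2, the 3 hosts on the X chromosome were read separately. The 95% interval was -0.23 to 0.19 for L1cam, -0.21 to 0.09 for Cask, a scaffold kinase of the synapse, and -0.10 to 0.09 for Ap1s2.

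Other genes of these pathways also gave 0 calls. Among the relatives from the same families 38 were tested, with a median of -0.02 over both tissues and a range of -0.20 to 0.24. Of 33 splicing regulators (the PTBP, NOVA, RBFOX, CELF and ELAVL families among them) 32 were tested. Their median was -0.02 and their range -0.14 to 0.20.

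The second comparison set hippocampus against cortex, 4 libraries each, over both genotypes, to describe how host levels vary between the tissues. Here many hosts differed. Of the 48, 28 were lower in hippocampus (58.3%, against 25% of all genes) and 4 were higher (8.33%, against 29% of all genes) at an adjusted p under 0.05 (edgeR); in all 32 passed (66.7%), where 54.1% of all genes did. The median log2 fold change of the hosts was -0.23 (hippocampus over cortex) with 40 of 48 below 0, against a median of 0.02 and 46.9% below 0 over all genes. The median of the hosts, centred per gene, lay between -0.18 and -0.06 log2 CPM in the 4 hippocampus libraries and between 0.08 and 0.18 in the 4 cortex libraries, without overlap.

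Differences were mostly small. Mef2c was the host that exceeded 1 on the log2 scale (2.08% of hosts, against 13.5% of all genes), and 13 hosts exceeded 0.5 (27.1%, against 31.4%). The shares of all genes were again not matched for level. Overlap was read in RPKM, which is scaled by library totals, whereas the tests used TMM scaling. The libraries of the tissues did not overlap for 29 hosts (60.4%, against 50.7% of all genes), 23 of them lower (47.9%, against 18%) and 6 higher (12.5%, against 32.6%).

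The tissues also differed in makeup. The 7 neuron markers summed to 2330 to 2580 RPKM in hippocampus and 2920 to 3170 RPKM in cortex, and all 7 were lower in hippocampus with a median log2 fold change of -0.35. The 8 radial glia markers summed to 1400 to 1720 RPKM in hippocampus and 967 to 1070 RPKM in cortex, with 6 of 8 higher. Interneuron markers (9 genes) summed to 148 to 204 RPKM in hippocampus and 512 to 550 RPKM in cortex, with all 9 lower. The part of these differences in cell makeup, and of the striatal RNA in the cortex libraries, in the host values was not tested.

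Scaling shifted these values as a whole. With library totals in place of TMM the median of all genes was 0.11 and that of the hosts -0.14, and 5 hosts were higher and 22 lower, while over all genes 5853 were higher and 3063 lower, against 4679 and 4033 with TMM. The 4 higher hosts passed in all 16 alternatives, as did 22 of the 28 lower hosts. Those that lost the call in at least 1 alternative were Apbb1, Dock9, Picalm, Myo18a, Clasp2 and Cpeb4.

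**Figure D4:**
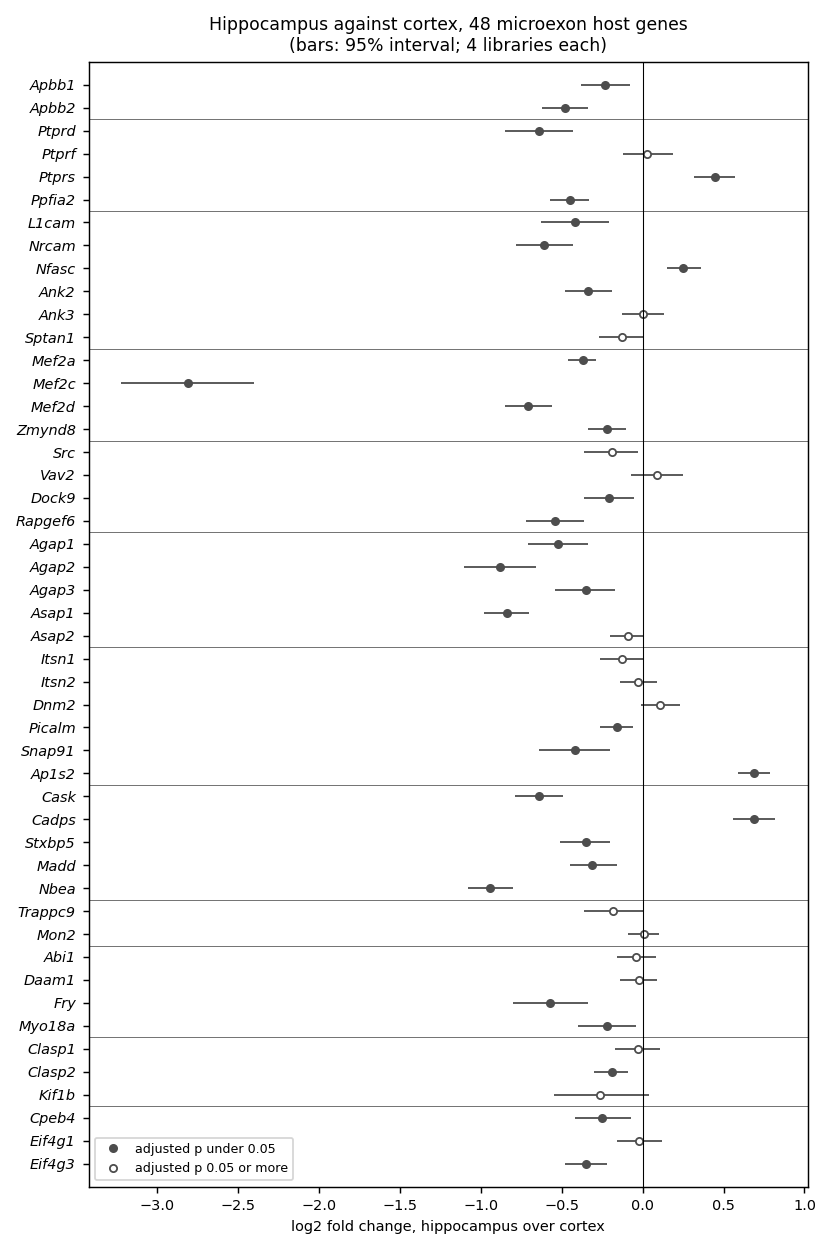
Log2 fold change of each host, hippocampus over cortex, over both genotypes; bars are 95% intervals and filled points passed an adjusted p of 0.05 (edgeR). Ap1s2, Cadps, Ptprs and Nfasc are the filled points above 0, 28 filled points lie below 0, and Mef2c lies farthest out at -2.81.

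The 4 MEF2 and chromatin hosts were all lower in hippocampus. Mef2c averaged 16.0 ± 5.37 RPKM in hippocampus and 104.5 ± 2.18 RPKM in cortex (SD, n = 4 each), a log2 fold change of -2.81 (SE 0.18, adjusted p = 2e-06, edgeR), and lay between -3.06 and -2.70 with any 1 library left out. Mef2d had 15.37 and 18.24 RPKM in hippocampus KO, 16.69 and 17.71 RPKM in hippocampus controls, 25.57 and 27.38 RPKM in cortex KO and 26.31 and 25.00 RPKM in cortex controls. Its log2 fold change came to -0.71 (SE 0.06, adjusted p = 1.6e-05, edgeR), with no overlap between tissues. Mef2a was lower by less, at -0.37 (SE 0.04), and Zmynd8 stood at -0.22 (SE 0.05). The interval of Mef2c, -3.22 to -2.40, did not meet that of Mef2d, -0.85 to -0.56, or of Mef2a, -0.46 to -0.29.

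The LAR-type phosphatases went different ways. Ptprs was higher in hippocampus, at 186 ± 11.6 RPKM against 128.3 ± 8.18 RPKM in cortex (SD, n = 4 each), with a log2 fold change of 0.45 (SE 0.06, adjusted p = 0.00014, edgeR). Ptprd was lower, at 31.8 ± 3.36 RPKM in hippocampus against 46.5 ± 6.05 RPKM in cortex, with -0.64 (SE 0.09, adjusted p = 0.00036). Ptprf had a value of 0.03 (95% interval -0.12 to 0.19). Their binding partner Ppfia2, a liprin that organises the presynaptic active zone, was lower at -0.45 (SE 0.05). An opposite-strand neighbour, Acss3, covers 22.3% of the exon bases of Ppfia2 but had 0.0762 RPKM on average.

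In the L1 family Nfasc was higher in hippocampus, at 44.2 ± 2.49 RPKM against 34.8 ± 1.68 RPKM in cortex (SD, n = 4 each; log2 fold change 0.25, SE 0.05, adjusted p = 0.0016, edgeR). Nrcam (-0.61, SE 0.08) and L1cam (-0.42, SE 0.09) were lower. Their membrane anchor Ank2 was lower as well (-0.34, SE 0.06), while Ank3, which organises the axon initial segment, had a 95% interval of -0.13 to 0.13 and Sptan1 one of -0.27 to 0.01. Both amyloid precursor adaptors were lower, Apbb2 at -0.48 (SE 0.06) and Apbb1 at -0.23 (SE 0.07).

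Of the 5 Arf GTPase-activating proteins 4 were lower. Agap2, which also binds phosphoinositide 3-kinase, had 42.20 and 57.10 RPKM in hippocampus KO, 52.19 and 57.58 RPKM in hippocampus controls, 91.60 and 90.50 RPKM in cortex KO and 91.30 and 87.31 RPKM in cortex controls. Its log2 fold change came to -0.88 (SE 0.10, adjusted p = 5.5e-05, edgeR), and hippocampus KO replicate 1 was its lowest library. Asap1 had 8.41 and 8.87 RPKM in hippocampus KO, 9.35 and 8.69 RPKM in hippocampus controls, 15.54 and 14.53 RPKM in cortex KO and 15.03 and 14.35 RPKM in cortex controls, a log2 fold change of -0.84 (SE 0.06, adjusted p = 4.2e-06, edgeR). Asap2, with a similar short exon, averaged 16.3 RPKM in hippocampus and 16.4 RPKM in cortex (-0.09, 95% interval -0.20 to 0.01). Agap1 (-0.52, SE 0.08) and Agap3 (-0.35, SE 0.08) completed the group.

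All 5 synaptic hosts passed, 4 lower and 1 higher. Nbea, a scaffold for the traffic of synaptic receptors, had 37.47 and 34.57 RPKM in hippocampus KO, 38.40 and 36.50 RPKM in hippocampus controls, 68.35 and 64.00 RPKM in cortex KO and 68.28 and 64.19 RPKM in cortex controls. Its log2 fold change came to -0.94 (SE 0.06, adjusted p = 2.4e-06, edgeR), and the tissues did not overlap. Cadps, the higher host, averaged 54.3 ± 3.76 RPKM in hippocampus and 31.7 ± 1.44 RPKM in cortex (SD, n = 4 each), a log2 fold change of 0.69 (SE 0.06, adjusted p = 8.6e-06, edgeR). Cask (-0.64, SE 0.07), Stxbp5 (-0.35, SE 0.07) and Madd, an exchange factor for Rab3 (-0.31, SE 0.06), were lower.

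In the endocytic group Ap1s2 was higher. It had 16.26 and 16.00 RPKM in hippocampus KO, 15.29 and 16.40 RPKM in hippocampus controls, 9.42 and 9.10 RPKM in cortex KO and 9.15 and 9.52 RPKM in cortex controls. Ap1s2 stood at a log2 fold change of 0.69 (SE 0.04, adjusted p = 1.7e-06, edgeR), with no overlap between tissues. Snap91 (-0.42, SE 0.10) and Picalm (-0.16, SE 0.04) were lower, and Itsn1, Itsn2 and the dynamin Dnm2, which pinches vesicles off, did not pass. In RPKM, Dnm2 and Mon2, a regulator of traffic at the Golgi, lay higher in all 4 hippocampus libraries than in cortex. RPKM is scaled by library totals, whereas the test used TMM scaling. In the test neither passed. Dnm2 stood at 0.11 (95% interval -0.01 to 0.23) and Mon2 at 0.01 (95% interval -0.09 to 0.10).

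Among the exchange factors and Src, Rapgef6 (-0.54, SE 0.08) and Dock9, which activates Cdc42 (-0.21, SE 0.07), were lower, and Src (-0.19, SE 0.07, adjusted p = 0.051, edgeR) and Vav2 (0.09, SE 0.07) did not pass. Fry, a large scaffold of polarised growth (-0.57, SE 0.10), and Myo18a, an unconventional myosin (-0.22, SE 0.08), were lower among the actin regulators, and Abi1, of the WAVE complex, and the formin Daam1 did not pass. Clasp2 (-0.19, SE 0.05) was lower among the microtubule hosts. Cpeb4, which binds untranslated regions to control translation (-0.25, SE 0.08), and Eif4g3 (-0.35, SE 0.06) were lower, while Eif4g1 had a 95% interval of -0.16 to 0.12. Trappc9, of the TRAPP tethering complex, did not pass (-0.18, SE 0.08).

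In controls alone, 2 libraries against 2, 20 hosts passed, 16 lower (33.3%, against 14.9% of all genes) and 4 higher (8.33%, against 19%); 33.9% of all genes passed in either direction. The 4 higher hosts were again Ap1s2, Cadps, Ptprs and Nfasc, with log2 fold changes of 0.69, 0.69, 0.44 and 0.25. Mef2c stood at -3.03 (SE 0.25, adjusted p = 6.8e-05, edgeR), Nbea at -0.90, Agap2 at -0.78, Asap1 at -0.78 and Mef2d at -0.65. The hosts' median was -0.20. Without cortex control replicate 1 the count of hosts was 13 and that of all genes 3231, against 5464 with it.

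Of the other genes in these pathways, 38 relatives of the hosts were tested, of which 18 were lower and 10 higher in hippocampus, with a median of -0.19 (25% of all genes were lower and 29% higher). Relatives could go against the host: Asap3 was higher at 1.30 (SE 0.12), and Ap1s1 was lower at -0.44 (SE 0.04) where Ap1s2 was higher. The neuronal dynamins Dnm1 (-1.12, SE 0.09) and Dnm3 (-1.15, SE 0.14) were lower where Dnm2 did not pass. Of 32 splicing regulators 17 were lower and 6 higher, with a median of -0.23. Srrm3, the closest relative of Srrm4, was lower (-0.40, SE 0.07), and Ptbp1, which represses neuronal exons in other cells, was higher (0.69, SE 0.05). Compared with the relatives, the hosts differed in the share with a short exon, and no test of a difference in level between the lists was made.

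Host levels also moved with the replicate number for a few genes. In 3 hosts all 4 replicate 1 libraries lay beyond all 4 replicate 2 libraries (6.25%, against 6.69% of all genes), a share near the background. Kif1b was the widest, with 88.82 and 72.77 RPKM in hippocampus KO, 94.37 and 75.55 RPKM in hippocampus controls, 106.01 and 80.24 RPKM in cortex KO and 103.15 and 82.19 RPKM in cortex controls. The first value of each pair is replicate 1, the deeper library in every group. Sptan1 was likewise higher and Abi1 lower in the replicate 1 libraries.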

How the data were processed

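The 12 GEO samples reach 8 tables, because runs 1 and 2 of replicate 1 share a table in each group, and each table was used as 1 library. Each deposited table gives a whole-number count of reads and an RPKM value per Ensembl gene; the counts were used as deposited, and the RPKM values are the authors' counts per length and total. The 1114 RPKM cells per table that hold the text "ne" were treated as missing, and blank counts as 0. Per the submitters' processing notes, reads were aligned with Bowtie to mm9; the sources used here do not give the counting rule, any strand setting or the annotation. Without strand, reads of a host and of an overlapping neighbour cannot be told apart (Ppfia2, L1cam, Mef2a, Asap2, Itsn2, Dnm2, Nbea and Abi1 have exonic overlaps).

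Of 22667 identifiers, 20759 matched a symbol through the gene name table. Genes passing filterByExpr (minimum count 10, minimum total 15; 16111 genes) were tested with edgeR 4.0.16 (TMM, glmQLFit and glmQLFTest, R 4.3.3), two-sided, with Benjamini-Hochberg adjustment over all of them. The KO effect in each tissue, its difference between tissues and the tissue effect in controls came from a fit of 4 group means, and the effects over both tissues or genotypes from an additive model. The SE was taken as the absolute log2 fold change over the square root of F. Alternatives were RLE scaling, library totals, DESeq2 1.42.0, limma 3.58.1 on log2(RPKM + 1) and log2(RPKM + 0.1), no filter, at least 1 RPKM in 2 libraries, a replicate block, each tissue alone and each library left out. Short exons were read from GENCODE M21 (GRCm38), so no coordinates are given.

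Values in every library are given for the 6 hosts with the smallest p over both tissues and the 3 in each tissue, for up to 5 passing hosts per direction with the largest tissue difference and no overlap, and for the 3 highest and 3 lowest hosts by mean RPKM; Kif1b was named after its values were seen. The members and lists were chosen with earlier results of these data known. Another gene of the marker lists is not reported here.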

Additional observations from a re-analysis of the deposited data

How the results depend on the processing

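In cortex, the 3 genes called for KO against control were 11 with DESeq2. In hippocampus, the 4 genes called were 18 with DESeq2, 2 with limma on log2(RPKM + 1), 2 with at least 1 RPKM in 2 libraries and 2 with the hippocampus libraries alone; RLE scaling gave 3 (2 higher, 1 lower) and library totals 3 (1 higher, 2 lower), against 2 higher and 2 lower with TMM. Over both tissues, the 10 genes called were 37 with DESeq2 and 22 with the replicate block, and the number of hosts called was 1 with DESeq2 (Picalm) and 0 in the other alternatives. With single libraries left out, all genes called ranged from 2 to 3 in cortex, 2 to 6 in hippocampus and 7 to 10 over both tissues, and the hosts' median log2 fold change ranged from -0.04 to 0.07 in cortex, from -0.10 to -0.01 in hippocampus and from -0.05 to 0.00 over both. Mef2c in hippocampus ranged from -0.11 to 0.78, and its value of -0.11 came without hippocampus KO replicate 1.

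For hippocampus against cortex, the hosts' median was -0.14 with library totals, -0.13 with limma on log2(RPKM + 1) and -0.14 with limma on log2(RPKM + 0.1); in controls these were -0.13, -0.12 and -0.13. With single libraries left out, the comparison in controls gave 3231 to 6000 genes, 13 to 27 hosts and a hosts' median of -0.26 to -0.16. Over both genotypes the count of hosts called ranged from 27 to 36 over the 16 alternatives. The cause of these shifts was not tested.

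The labels give every group replicates 1 and 2, without saying what a number shares. Deviations of same-numbered libraries were correlated between groups over 11303 genes. The correlation was 0.728 to 0.765 among cortex KO, cortex control and hippocampus control. Between hippocampus KO and each of these groups it was 0.107 to 0.393. With only 2 numbers these were not taken as pairs, and the replicate block gave 0 hosts in each KO comparison and 36 hosts in the tissue comparison. The Y-linked sums of replicate 2 were alike in hippocampus and cortex, at 0.14 and 0.11 RPKM in KO and 47 and 45.5 RPKM in controls. The fits over both tissues still counted each library as separate. If the tissues share embryos, those SEs, intervals and p-values rest on fewer embryos than libraries. With 2 libraries a group and depths that differ by replicate, the hosts' 95% intervals give the sizes of change compatible with these fits. They are not a limit of detection, which was not estimated for the hosts.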
